A study of Mus musculus with 11 samples.

Results

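The genes described are 35 mouse genes that make nucleotides, serine, folate-bound one-carbon units and polyamines. They were picked by symbol from a table of gene counts with 38406 rows, and all 35 were found there. The counts come from 3′ mRNA sequencing, which reads a tag near the end of each transcript, of 11 libraries of cerebellar tumours labelled as medulloblastoma, all from untreated CD1 mice. Tumours named N1ICD (n = 3) combined MYC, Gfi1 and the Notch1 intracellular domain (N1ICD) in Math1-positive cells. Tumours named S100b-cell (n = 3) combined MYC with Gfi1 in cells positive for S100b. The constitutive models, MYC/Otx2 (n = 3) and MYC/Gfi1 (n = 2), had no such cell restriction in the labels and are published models of Group 3 medulloblastoma per the series' design. MYC was thus an oncogene of all 4 groups, and no normal cerebellum was among the libraries. Whether libraries of 1 group are different animals is not stated in the labels, and p-values reflect the spread between these libraries, which may be technical.

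Dividing cells build purine and pyrimidine rings from amino acids, carbon dioxide and one-carbon units, on a ribose phosphate supplied as PRPP, and reduce some of the products to deoxynucleotides for DNA. Serine made from a glycolytic intermediate gives its side-chain carbon to folate, which carries it to the purine ring and to thymidylate. Polyamines are small cations made from ornithine that bind nucleic acids. Many genes of these pathways, among them Cad, Odc1 and Shmt1, are known targets of the transcription factor MYC, whose amplification is frequent in human Group 3 medulloblastoma.

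Libraries held 2.58 to 3.38 M counts in the N1ICD group, 12.8 to 15.2 M in the S100b-cell group, 6.97 to 8.33 M in the MYC/Otx2 group, and 7.53 and 6.53 M in the MYC/Gfi1 group. Genes encoded in mitochondria took 23.2 to 27.6% of counts in N1ICD, 14.7 to 18.5% in S100b-cell, 5.18 to 5.74% in MYC/Otx2, and 5.996 and 5.96% in MYC/Gfi1 libraries. Library names differ in style between the N1ICD set, the S100b-cell set and the set of both constitutive models, so library set and model cannot be told apart except between MYC/Otx2 and MYC/Gfi1. Levels are counts per M TMM-scaled counts (CPM). Atoh1, which encodes Math1, was at 0 in each N1ICD and each MYC/Otx2 library and at most at 0.932 CPM elsewhere, and S100b was at 1.23, 27.7 and 63.8 CPM in the S100b-cell libraries, against up to 557 CPM in another library.

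Markers of other cell types differed between libraries of a group. In N1ICD replicate 1 the 6 astroglial markers summed to 1679 CPM, most of it Slc1a3, against 61.01 and 144 CPM in N1ICD replicates 2 and 3, and the 5 mural cell markers summed to 238 CPM, against 6235 and 2244 CPM. In MYC/Gfi1 replicate 2 the 6 markers of mature granule neurons summed to 2826 CPM and the 4 Purkinje markers to 1323 CPM, with Fat2 and Pcp2 near 0, against 103 and 10.7 CPM in MYC/Gfi1 replicate 1. In S100b-cell replicate 1 the 6 neuron markers summed to 21.1 CPM, against 178 and 41.99 CPM in S100b-cell replicates 2 and 3. Over all gene counts, replicate 1 was farther from replicates 2 and 3 than these were from each other in the N1ICD group (chi-square per degree of freedom 47.2 and 43.7, against 23.7) and in the S100b-cell group (65.8 and 63.1, against 41.96). The MYC/Gfi1 libraries were the farthest apart of any pair within a group (125.5), and MYC/Otx2 pairs were at 20.9 to 27.2.

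Other marker lists differed between groups. The 5 mural markers summed to 238 to 6235 CPM in N1ICD, 105 to 200.3 CPM in S100b-cell, 57.8 to 120.4 CPM in MYC/Otx2, and 37.8 and 116 CPM in MYC/Gfi1 libraries, and all 5 rose in N1ICD over MYC/Otx2 (edgeR, adjusted p = 0.00169 to 0.0186) and over MYC/Gfi1 tumours (adjusted p = 0.02 to 0.0382). The 5 B lineage markers, in MYC/Gfi1 libraries mostly the immunoglobulin genes Igha and Igkc, summed to 0 to 0.857 CPM in N1ICD, 2.91 to 66.4 CPM in S100b-cell, 0.116 to 0.424 CPM in MYC/Otx2, and 3394 and 611 CPM in MYC/Gfi1 libraries, and both tested genes, Igha and Igkc, fell in MYC/Otx2 over MYC/Gfi1 tumours (adjusted p = 0.0142 and 0.042). The 7 microglia markers summed to 158 to 228 CPM in N1ICD, 549 to 839 CPM in S100b-cell, 113 to 398 CPM in MYC/Otx2, and 533 and 756 CPM in MYC/Gfi1 libraries, and 2 of them, C1qb and C1qa, rose in S100b-cell over MYC/Otx2 tumours (adjusted p = 0.0324 and 0.045). The part of other cell types in the values of the synthesis genes was not tested, and in bulk tissue fewer cells of a type and less RNA per cell cannot be told apart.

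Summed, the 35 genes stood at 3247, 3678 and 5086 CPM in N1ICD, 5015, 4347 and 4028 CPM in S100b-cell, 8499, 6608 and 7899 CPM in MYC/Otx2, and 4474 and 3282 CPM in MYC/Gfi1 libraries. Each MYC/Otx2 library lay above every library of the other groups, and those other groups overlapped. The mean was highest in MYC/Otx2 tumours for 25 of 35 genes, in S100b-cell tumours for 8, in N1ICD tumours for 1 (Adss) and in MYC/Gfi1 tumours for 1 (Ctps2). The lowest mean was in MYC/Gfi1 tumours for 21 genes, in N1ICD tumours for 8, in S100b-cell tumours for 4 and in MYC/Otx2 tumours for 2 (Ctps2 and Gmps). For 14 genes every MYC/Otx2 library lay above all 8 others, against 8.45% of the 15228 genes tested: Cad, Rrm2, Pfas, Atic, Impdh1, Impdh2, Prps1, Hprt, Psat1, Shmt1, Mthfd1, Mthfd2, Mthfd1l and Sms. Gmps was the 1 gene of the 35 for which every MYC/Otx2 library lay below all others, against 6.08% of all tested genes. Within groups, N1ICD replicate 1 was the lowest library for 27 of 35 genes, against 37.9% of all tested genes, and the highest for 6, among them the 3 serine genes. MYC/Gfi1 replicate 2 lay below replicate 1 for 29 of 35, against 47.5% of all tested genes. The members also leaned one way in other libraries: MYC/Otx2 replicate 2 was the lowest of its group for 25 (against 30.02% of all tested genes) and S100b-cell replicate 3 for 21 (31.7%), and S100b-cell replicate 1 was the highest for 24 (35.8%) and N1ICD replicate 3 for 25 (29.8%). The heatmap of the 35 genes shows these blocks.

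**Figure D1:**
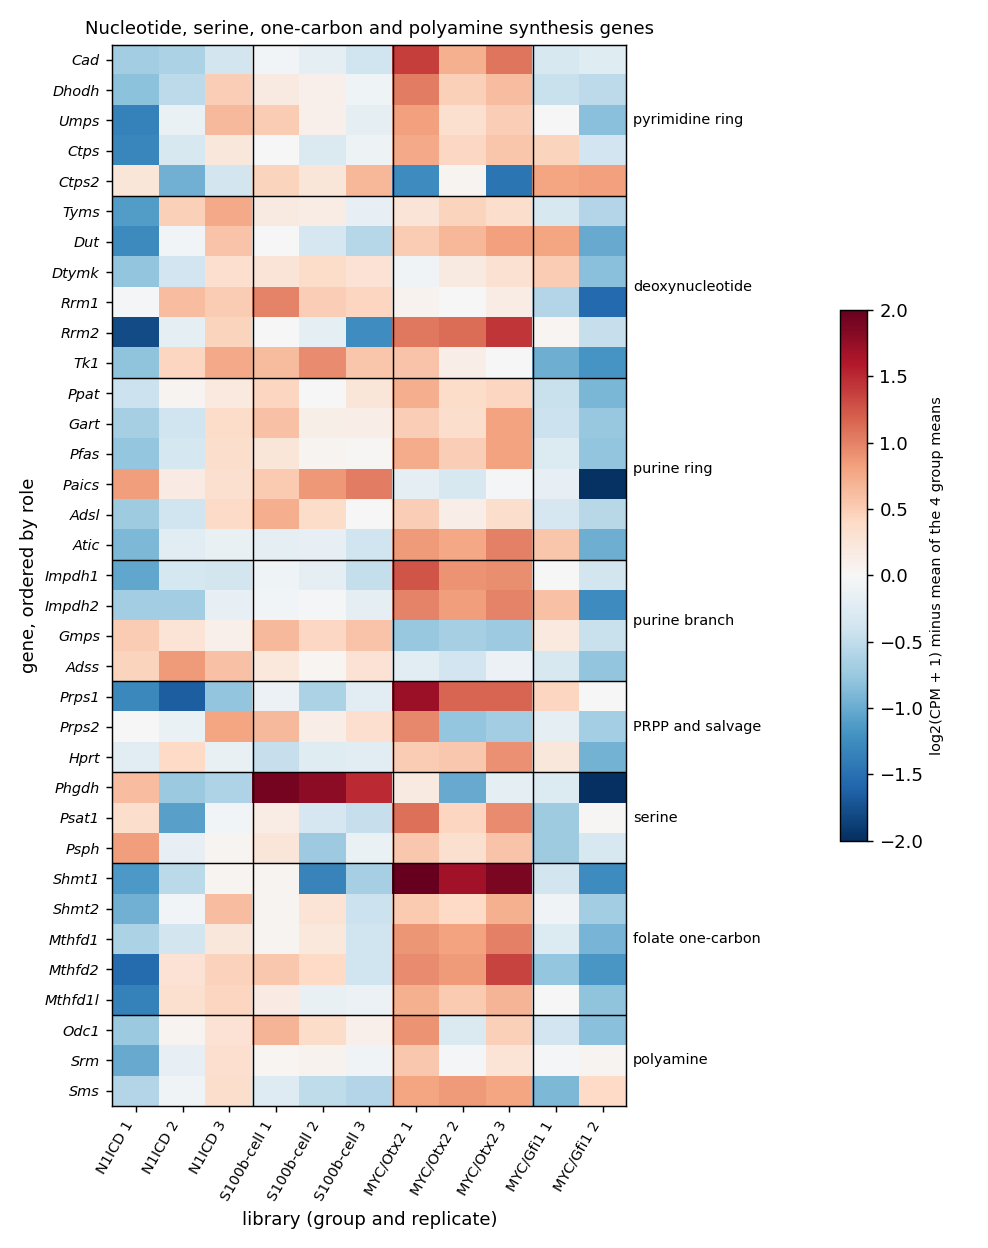
Heatmap of the 35 genes (rows, grouped by role) in the 11 libraries (columns, by group and replicate). Colour is log2(CPM + 1) minus the mean of the 4 group means, clipped at 2 on either side. For 14 genes all MYC/Otx2 columns are above every other column and for Gmps they are below, while N1ICD replicate 1, MYC/Otx2 replicate 2 and MYC/Gfi1 replicate 2 are the lowest of their groups for 27, 25 and 29 of 35 genes.

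The summed level of 15 proliferation markers and counts at the mouse Myc symbol were also highest in MYC/Otx2 libraries, while single markers ran either way. The 15 proliferation markers summed to 1969 to 2945 CPM in N1ICD, 2364 to 3924 CPM in S100b-cell, 4404 to 5487 CPM in MYC/Otx2, and 3180 and 2108 CPM in MYC/Gfi1 libraries. Birc5 and Top2a made up 55.01% of the sum in MYC/Otx2 libraries. The mean was highest in MYC/Otx2 tumours for 11 of the 15, in N1ICD tumours for 3 (Mki67, Mcm4 and Mcm7) and in S100b-cell tumours for 1 (Ccne2). Mki67, a marker of cycling cells, was at 162 to 277 CPM in N1ICD, 97.7 to 167 CPM in S100b-cell, 50.6 to 57.4 CPM in MYC/Otx2 and 57.9 and 26.6 CPM in MYC/Gfi1 libraries, and Ccne2, a cyclin of S phase entry, at 40.3 to 53.97 CPM in N1ICD, 53.02 to 58.5 CPM in S100b-cell, 13.2 to 23.6 CPM in MYC/Otx2 and 23.7 and 15.1 CPM in MYC/Gfi1 libraries. Both rose over MYC/Otx2 in N1ICD (adjusted p = 0.00372 and 0.00754) and in S100b-cell tumours (adjusted p = 0.0347 and 0.00601). Myc was at 0.429, 1.05 and 2.44 CPM in N1ICD, 4.21, 2.005 and 3.75 CPM in S100b-cell, 128, 31.5 and 66.5 CPM in MYC/Otx2, and 27.5 and 11.04 CPM in MYC/Gfi1 libraries. Whether these tags count a transgene is not known from the labels. The part of proliferation and of Myc in the differences described was not tested.

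Promoters were read from RefSeq windows on GRCm38.p6, from 250 bases before to 50 bases after a transcription start, which were found for 32 of the 35 genes (not for Dhodh, Pfas and Srm). The E-box CACGTG, a motif bound by MYC that reads the same on both strands, was present for 6 of 32 genes (18.8%), against 8.09% of all 27025 genes with a window. These were Atic, Dtymk, Tyms, Paics, Impdh2 and Sms. The GC box, GGGCGG or CCGCCC on the other strand, was present before the start for 25 of 32 genes (78.1%), against 35.4% of all genes with a window. The GC box, and the genes shown, were chosen after sequences and values were seen. A match is a string of letters and not a measured site, and the shares are descriptions without a test. All 35 members were among the 15228 genes tested, while the 27025 genes with a window include genes that were not. The shares thus set unlike sets of genes side by side. The bases before the start are shown, with GC boxes in capitals, for Prps1 and Cad, high in MYC/Otx2 tumours, and for Gmps, low there. Starts are those of RefSeq and can differ from the gene bounds given below. The last printed bases of Gmps, with its second GC box, lie past 63976106, where those bounds begin.
Prps1, chrX:140456353-140456602, plus strand: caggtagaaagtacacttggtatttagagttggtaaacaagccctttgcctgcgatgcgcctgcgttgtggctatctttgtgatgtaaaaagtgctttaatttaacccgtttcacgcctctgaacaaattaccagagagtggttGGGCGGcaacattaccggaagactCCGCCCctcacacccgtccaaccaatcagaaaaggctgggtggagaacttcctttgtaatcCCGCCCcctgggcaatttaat
Cad, chr5:31054530-31054779, plus strand: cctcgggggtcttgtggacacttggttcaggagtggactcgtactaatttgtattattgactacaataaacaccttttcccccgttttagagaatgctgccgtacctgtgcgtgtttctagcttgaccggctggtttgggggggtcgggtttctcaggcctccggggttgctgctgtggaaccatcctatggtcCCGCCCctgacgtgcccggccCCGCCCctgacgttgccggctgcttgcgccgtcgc
Gmps, chr3:63975893-63976142, plus strand: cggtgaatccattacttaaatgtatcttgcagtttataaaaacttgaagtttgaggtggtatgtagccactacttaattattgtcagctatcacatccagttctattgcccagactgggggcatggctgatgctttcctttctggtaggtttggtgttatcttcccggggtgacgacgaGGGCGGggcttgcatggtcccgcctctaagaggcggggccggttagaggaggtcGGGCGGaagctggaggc
The windows of Prps1, Cad and Gmps hold no CACGTG. The called genes that do hold one, Atic, Impdh2 and Sms, are shown over 60 bases with the E-box in capitals. Each was higher in every MYC/Otx2 library than in any other library, as were 14 of the 35 genes in all. The other E-box genes, Dtymk, Tyms and Paics, were not called by the edgeR fit of all 4 groups and 11 libraries and did not have that pattern. Any link of the E-box with level was not tested.
Atic, chr1:71557096-71557155, plus strand: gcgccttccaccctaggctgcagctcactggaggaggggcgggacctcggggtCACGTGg
Impdh2, chr9:108560299-108560358, plus strand: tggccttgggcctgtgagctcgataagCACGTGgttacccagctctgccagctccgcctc
Sms, chrX:157492451-157492510, minus strand: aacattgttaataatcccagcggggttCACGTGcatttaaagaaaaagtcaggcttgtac

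Of the pyrimidine ring genes, Cad (chromosome 5, 31054780 to 31078479, mm10), whose protein joins the opening steps of the pathway, was the 1 that passed the test. Cad was at 92.6, 97.6 and 117 CPM in N1ICD, 146, 134 and 114 CPM in S100b-cell, 397, 248 and 318 CPM in MYC/Otx2, and 121 and 128 CPM in MYC/Gfi1 libraries. All MYC/Otx2 libraries were above all others, which spanned 92.6 to 146 CPM. Its log2 fold change was -1.65 ± 0.22 in N1ICD over MYC/Otx2 tumours (SE, edgeR, adjusted p = 0.00154), -1.29 ± 0.21 in S100b-cell over MYC/Otx2 (adjusted p = 0.00507) and 1.37 ± 0.25 in MYC/Otx2 over MYC/Gfi1 (adjusted p = 0.0192). Dhodh, the mitochondrial dehydrogenase of the pathway, Umps, which makes UMP, and Ctps, a CTP synthase, also had their highest mean in MYC/Otx2 tumours. The edgeR fit of all 4 groups called them in no comparison. Ctps2, the other CTP synthase, was at 5.58 to 14.2 CPM in N1ICD, 14.2 to 19.5 CPM in S100b-cell, 3.7 to 12.3 CPM in MYC/Otx2, and 21.2 and 21.8 CPM in MYC/Gfi1 libraries. MYC/Gfi1 libraries were above all others, as for 5.53% of all tested genes. The Ctps2 value of -1.66 ± 0.55 in MYC/Otx2 over MYC/Gfi1 tumours missed the threshold (adjusted p = 0.0935).

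Deoxynucleotide genes split in pattern. Rrm1, the large subunit of ribonucleotide reductase, was at 78.03, 123 and 115 CPM in N1ICD, 160.2, 114 and 108 CPM in S100b-cell, 84.3, 79.8 and 89.3 CPM in MYC/Otx2, and 53.4 and 26.9 CPM in MYC/Gfi1 libraries. Tk1, the cytosolic thymidine kinase of salvage, was at 23.6, 56.8 and 71.8 CPM in N1ICD, 66.1, 81.8 and 62.5 CPM in S100b-cell, 63.3, 46.3 and 42.5 CPM in MYC/Otx2, and 20.98 and 18.01 CPM in MYC/Gfi1 libraries. For Rrm1 and for Tk1 both MYC/Gfi1 libraries were below all 9 others. Rrm1 rose by 1.39 ± 0.34 on the log2 scale in N1ICD over MYC/Gfi1 tumours (SE, adjusted p = 0.0299) and by 1.67 ± 0.34 in S100b-cell over MYC/Gfi1 tumours (adjusted p = 0.0304). Tk1 rose by 1.85 ± 0.43 in S100b-cell over MYC/Gfi1 tumours (adjusted p = 0.0424), and its value in N1ICD over MYC/Gfi1 tumours was 1.38 ± 0.42 (adjusted p = 0.0614).

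Rrm2, the small subunit of the reductase, was at 15.4 to 76.3 CPM in N1ICD, 22.8 to 55.5 CPM in S100b-cell, 117 to 151 CPM in MYC/Otx2, and 57 and 39.9 CPM in MYC/Gfi1 libraries. Here each MYC/Otx2 library was above all others, unlike for Rrm1. Its log2 fold change over MYC/Otx2 was -1.47 ± 0.51 in N1ICD (adjusted p = 0.0641) and -1.61 ± 0.51 in S100b-cell tumours (adjusted p = 0.0522), both short of the threshold. Rrm1 had values of 0.32 ± 0.29 and 0.59 ± 0.29 in the same comparisons, and the difference between the subunits was not tested. Of the genes around thymidylate, Dut, which hydrolyses dUTP, Tyms, which makes thymidylate, and Dtymk, which phosphorylates it, none was called by the edgeR fit of all groups. Dut was at 572 CPM in MYC/Gfi1 replicate 1 and 165 CPM in MYC/Gfi1 replicate 2, a gap wider than the range of the MYC/Otx2 libraries (468 to 584 CPM).

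**Figure D2:**
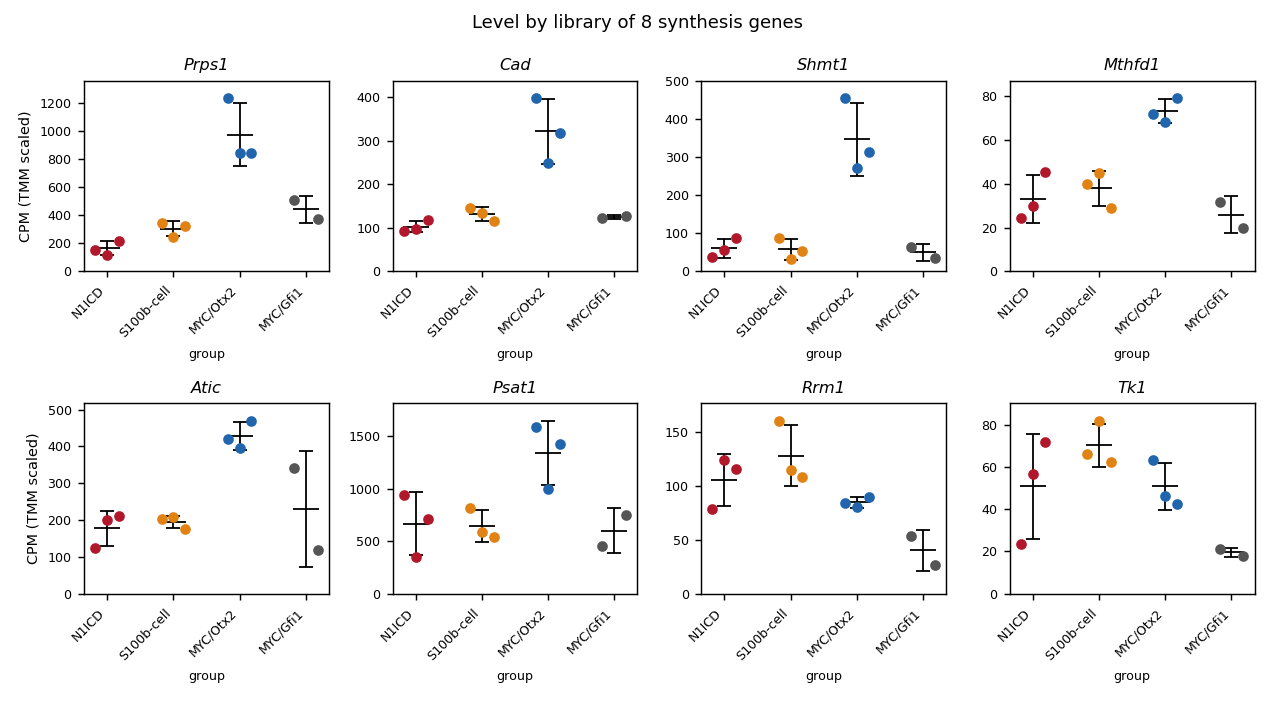
Level of 8 genes in CPM (y axis) by group (x axis). Points are libraries and bars are the mean ± SD (n = 3, n = 2 for MYC/Gfi1). The MYC/Otx2 points are above all others for Prps1, Cad, Shmt1, Mthfd1, Atic and Psat1, and the MYC/Gfi1 points are below all others for Rrm1 and Tk1.

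Along the purine ring, Ppat and Atic passed the test in the comparisons named here. Ppat, the amidotransferase that commits PRPP to purines, was at 54.02, 76 and 83.99 CPM in N1ICD, 98.02, 73.6 and 86.01 CPM in S100b-cell, 122, 94.7 and 98.2 CPM in MYC/Otx2, and 53.3 and 38.3 CPM in MYC/Gfi1 libraries. The MYC/Gfi1 libraries were below all others, as for 4.52% of all tested genes. Ppat rose by 1.19 ± 0.28 (log2, SE) in MYC/Otx2 over MYC/Gfi1 tumours (adjusted p = 0.0393). Atic, which closes the ring to IMP, was at 124 to 209.8 CPM in N1ICD, 177 to 208 CPM in S100b-cell, 397 to 470 CPM in MYC/Otx2, and 342 and 118 CPM in MYC/Gfi1 libraries, so that MYC/Otx2 libraries were above all others. It fell by 1.27 ± 0.35 in N1ICD over MYC/Otx2 tumours (adjusted p = 0.0297) and by 1.13 ± 0.35 in S100b-cell over MYC/Otx2 tumours (adjusted p = 0.0492). Values were positive for all 6 ring genes in MYC/Otx2 over MYC/Gfi1 tumours and negative for 5 of 6 in N1ICD over MYC/Otx2 tumours. Of the 15228 genes tested, 6790 were positive and 6895 were negative in these comparisons, which share the MYC/Otx2 libraries.

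Paics, a bifunctional enzyme in the middle of the ring pathway, was the exception. It was at 162 to 257 CPM in N1ICD, 206 to 295 CPM in S100b-cell, 115 to 139 CPM in MYC/Otx2, and 128 and 35.7 CPM in MYC/Gfi1 libraries. All N1ICD and S100b-cell libraries were above all libraries of both constitutive models. No comparison passed the threshold in the edgeR fit of all 4 groups and 11 libraries. Its log2 fold change was 1.63 ± 0.46 in S100b-cell over MYC/Gfi1 (adjusted p = 0.0692), 1.28 ± 0.46 in N1ICD over MYC/Gfi1 (adjusted p = 0.0916) and 1.00 ± 0.39 in S100b-cell over MYC/Otx2 tumours (adjusted p = 0.1). DESeq2 called it higher in both comparisons over MYC/Gfi1. Limma-voom also called it in S100b-cell over MYC/Gfi1 tumours. An edgeR fit of the 2 groups alone called it in S100b-cell over MYC/Otx2 tumours. Paics and Ppat lie head to head and overlap by 272 bases on opposite strands at their 5′ ends, away from the 3′ ends where tags are counted. Gart, Pfas and Adsl, enzymes of other ring steps, had values of 1.17 ± 0.34, 1.21 ± 0.33 and 0.79 ± 0.35 in MYC/Otx2 over MYC/Gfi1 tumours (adjusted p = 0.0671, 0.0604 and 0.176).

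The genes that lead from IMP to GMP and AMP differed in direction, and all 4 passed the test in N1ICD over MYC/Otx2 tumours. Of all tested genes, 12.0% were called higher and 9.76% lower in that comparison. Impdh1, an isoform of the rate-limiting enzyme toward guanine nucleotides, was at 13.3, 21.96 and 21.9 CPM in N1ICD, 26.7, 24.9 and 20.1 CPM in S100b-cell, 69.1, 54.1 and 54.8 CPM in MYC/Otx2, and 28.3 and 21.8 CPM in MYC/Gfi1 libraries. Impdh2, the other isoform, was at 129 to 185 CPM in N1ICD, 183 to 204 CPM in S100b-cell, 373 to 416 CPM in MYC/Otx2, and 312 and 86.6 CPM in MYC/Gfi1 libraries. For both, each MYC/Otx2 library was above every other library. In N1ICD over MYC/Otx2 tumours Impdh1 fell by 1.64 ± 0.28 (log2, SE, adjusted p = 0.00444) and Impdh2 fell by 1.44 ± 0.38 (adjusted p = 0.0253). Impdh1 also fell by 1.31 ± 0.27 in S100b-cell over MYC/Otx2 tumours (adjusted p = 0.0122) and rose by 1.24 ± 0.31 in MYC/Otx2 over MYC/Gfi1 tumours (adjusted p = 0.049). The last call was lost in 13 of 19 alternatives, among them upper-quartile scaling, no low-count filter, a fit of the 2 groups alone and 9 of 11 fits with a library left out (adjusted p up to 0.174).

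Gmps (chromosome 3, 63976106 to 64022579, mm10), which turns the product of the Impdh enzymes into GMP, ran the other way. It was at 118, 100.4 and 88.9 CPM in N1ICD, 131, 111 and 123 CPM in S100b-cell, 48.5, 52.1 and 49.7 CPM in MYC/Otx2, and 94.4 and 60.6 CPM in MYC/Gfi1 libraries. The MYC/Otx2 libraries were close to each other and below all others. Gmps rose by 1.03 ± 0.22 (log2, SE) in N1ICD over MYC/Otx2 tumours (adjusted p = 0.00993) and by 1.28 ± 0.22 in S100b-cell over MYC/Otx2 tumours (adjusted p = 0.0054).

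Adss, the synthase that opens the branch toward AMP, was highest in N1ICD tumours. It was at 64.7, 86.1 and 71.4 CPM in N1ICD, 54.9, 48.6 and 58.4 CPM in S100b-cell, 40.3, 36.2 and 43.5 CPM in MYC/Otx2, and 37.8 and 27.02 CPM in MYC/Gfi1 libraries. Every N1ICD library was above every other library, as for 4.93% of all tested genes, and S100b-cell libraries were above those of both constitutive models. Adss rose by 1.19 ± 0.25 (log2, SE) in N1ICD over MYC/Gfi1 tumours (adjusted p = 0.0192) and by 0.89 ± 0.22 in N1ICD over MYC/Otx2 tumours (adjusted p = 0.0197), and its value over S100b-cell tumours was 0.46 ± 0.22 (adjusted p = 0.29).

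**Figure D3:**
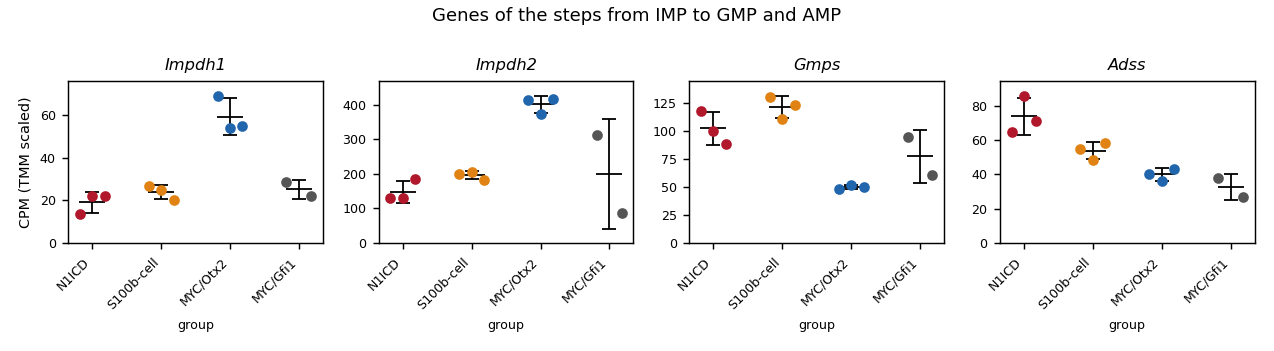
Level in CPM (y axis) by group (x axis) of the genes from IMP to GMP (Impdh1, Impdh2, Gmps) and toward AMP (Adss). Points are libraries and bars are the mean ± SD (n = 3, n = 2 for MYC/Gfi1). MYC/Otx2 points are the highest for Impdh1 and Impdh2 and the lowest for Gmps, and N1ICD points are the highest for Adss.

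PRPP is made by Prps1 and Prps2. Prps1 (chromosome X, 140456613 to 140476140, mm10) was at 154, 118 and 218 CPM in N1ICD, 346, 242 and 319 CPM in S100b-cell, 1230, 842 and 841 CPM in MYC/Otx2, and 508 and 374 CPM in MYC/Gfi1 libraries. No groups overlapped, with N1ICD lowest, then S100b-cell, MYC/Gfi1 and MYC/Otx2. Every N1ICD library was below every other library for 3.7% of all tested genes. Prps1 fell by 2.57 ± 0.29 (log2, SE) in N1ICD over MYC/Otx2 tumours (adjusted p = 0.000848), by 1.43 ± 0.30 in N1ICD over MYC/Gfi1 tumours (adjusted p = 0.0183) and by 1.68 ± 0.28 in S100b-cell over MYC/Otx2 tumours (adjusted p = 0.00507). Its value in MYC/Otx2 over MYC/Gfi1 tumours was 1.14 ± 0.32 (adjusted p = 0.0608).

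The paralog Prps2 was at 34.9 to 66.5 CPM in N1ICD, 42.2 to 60.6 CPM in S100b-cell, 21.9 to 75.3 CPM in MYC/Otx2, and 33.7 and 23.5 CPM in MYC/Gfi1 libraries. MYC/Otx2 libraries overlapped every other group for it, and it was called in no comparison. Hprt, which salvages hypoxanthine and guanine with PRPP, was at 81.5 to 125 CPM in N1ICD, 68.4 to 82.2 CPM in S100b-cell, 136 to 179 CPM in MYC/Otx2, and 111 and 48.8 CPM in MYC/Gfi1 libraries. MYC/Otx2 libraries were above all others for Hprt, and its value of -0.98 ± 0.31 in S100b-cell over MYC/Otx2 tumours missed the threshold (adjusted p = 0.0515).

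Of the 3 serine genes none was called by the edgeR fit of all 4 groups. DESeq2 and limma-voom both called Psat1 and Phgdh in S100b-cell over MYC/Otx2 tumours, and Phgdh in S100b-cell over MYC/Gfi1 tumours. An edgeR fit of the 2 groups alone also called Psat1 and Phgdh in S100b-cell over MYC/Otx2 tumours. Psat1, the transaminase of the middle step, was at 942, 346 and 713 CPM in N1ICD, 820.3, 585 and 539.6 CPM in S100b-cell, 1594, 997 and 1431 CPM in MYC/Otx2, and 451 and 754 CPM in MYC/Gfi1 libraries. MYC/Otx2 libraries were above all others, replicate 2 only slightly above N1ICD replicate 1. Its log2 fold change was -1.01 ± 0.37 in N1ICD over MYC/Otx2 (adjusted p = 0.0751), -1.05 ± 0.37 in S100b-cell over MYC/Otx2 (adjusted p = 0.0732) and 1.15 ± 0.42 in MYC/Otx2 over MYC/Gfi1 tumours (adjusted p = 0.119). Psph, the phosphatase of the last step, was at 39.7 to 81.03 CPM in N1ICD, 26.7 to 52.9 CPM in S100b-cell, 56.05 to 67.4 CPM in MYC/Otx2, and 27.04 and 35.9 CPM in MYC/Gfi1 libraries.

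Phgdh, the dehydrogenase of the first step, had few counts. It was at 1.39 to 5.14 CPM in N1ICD, 10.3 to 14.2 CPM in S100b-cell, 0.997 to 3.53 CPM in MYC/Otx2, and 2.33 and 0 CPM in MYC/Gfi1 libraries. Every S100b-cell library was above every other library, as for 3.45% of all tested genes. In the edgeR fit of all 4 groups, the Phgdh values of 2.4 ± 0.99 in S100b-cell over MYC/Otx2 and 3.37 ± 1.22 in S100b-cell over MYC/Gfi1 tumours missed the threshold (adjusted p = 0.114 and 0.13). The last 300 bases of the Phgdh transcript match 13 processed pseudogenes at 95% identity or more over at least 100 bases, so its reads may be split among copies and its level is uncertain. The same holds, with fewer copies, for Sms (6), Rrm2 (2), Tyms (1) and Impdh2 (1). A gene on the opposite strand covers the 3′ end of Tk1 (Gm20708), Gart (Gm15964), Impdh2 (Ndufaf3), Shmt1 (Smcr8) and Shmt2 (Ndufa4l2), and these neighbours held at most 0, 45, 63, 43 and 49 counts in a library. Without the strand setting of the counting, reads of a gene and of such a neighbour cannot be told apart.

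The folate genes held the largest member fold change of MYC/Otx2 over MYC/Gfi1. Shmt1 (chromosome 11, 60788104 to 60811718, mm10), the cytosolic enzyme that passes the carbon of serine to folate, was at 37.3, 57.2 and 87.2 CPM in N1ICD, 87.3, 32.6 and 52.5 CPM in S100b-cell, 455, 272 and 314 CPM in MYC/Otx2, and 65.05 and 34.6 CPM in MYC/Gfi1 libraries. The MYC/Otx2 libraries were all far above the others, which overlapped. Shmt1 fell by 2.52 ± 0.45 (log2, SE) in N1ICD over MYC/Otx2 tumours (adjusted p = 0.00538) and by 2.59 ± 0.45 in S100b-cell over MYC/Otx2 tumours (adjusted p = 0.006), and it rose by 2.80 ± 0.53 in MYC/Otx2 over MYC/Gfi1 tumours (adjusted p = 0.0234). Its mitochondrial counterpart Shmt2 was at 68.6 to 207 CPM in N1ICD, 100.3 to 163 CPM in S100b-cell, 178 to 220.3 CPM in MYC/Otx2, and 128 and 82.9 CPM in MYC/Gfi1 libraries and was called in no comparison.

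Mthfd1, the cytosolic trifunctional folate enzyme, was at 24.4, 29.6 and 45.4 CPM in N1ICD, 40.1, 44.7 and 29.1 CPM in S100b-cell, 71.9, 68.3 and 79.04 CPM in MYC/Otx2, and 31.8 and 19.9 CPM in MYC/Gfi1 libraries. MYC/Otx2 libraries were above the rest, which overlapped. Mthfd1 fell by 1.14 ± 0.30 (log2, SE) in N1ICD over MYC/Otx2 tumours (adjusted p = 0.0258) and rose by 1.5 ± 0.35 in MYC/Otx2 over MYC/Gfi1 tumours (adjusted p = 0.0407). The mitochondrial folate enzyme Mthfd2 was at 76.3 to 310.4 CPM in N1ICD, 169 to 325 CPM in S100b-cell, 407 to 574 CPM in MYC/Otx2, and 131 and 99.9 CPM in MYC/Gfi1 libraries. Its partner Mthfd1l was at 31.7 to 111 CPM in N1ICD, 74.7 to 92.1 CPM in S100b-cell, 119 to 136 CPM in MYC/Otx2, and 82.9 and 46.6 CPM in MYC/Gfi1 libraries. Both were higher in each MYC/Otx2 library than in any other, and their values in MYC/Otx2 over MYC/Gfi1 tumours, 2.03 ± 0.54 (adjusted p = 0.056) and 0.99 ± 0.46 (adjusted p = 0.188), missed the threshold.

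Of the polyamine genes, Sms, the spermine synthase, was the 1 that passed the test. It was at 70.7 to 136 CPM in N1ICD, 70.5 to 89.1 CPM in S100b-cell, 184 to 192 CPM in MYC/Otx2, and 56.3 and 139.7 CPM in MYC/Gfi1 libraries, and it fell by 1.26 ± 0.33 (log2, SE) in S100b-cell over MYC/Otx2 tumours (adjusted p = 0.0299). Odc1, the ornithine decarboxylase that opens the pathway, was at 15 to 31.6 CPM in N1ICD, 27.8 to 41.7 CPM in S100b-cell, 20.9 to 48.7 CPM in MYC/Otx2, and 19.5 and 13.9 CPM in MYC/Gfi1 libraries. Srm, the spermidine synthase, was at 235 to 594 CPM in N1ICD, 451 to 496 CPM in S100b-cell, 458 to 683 CPM in MYC/Otx2, and 466 and 489 CPM in MYC/Gfi1 libraries. N1ICD and MYC/Otx2 libraries overlapped for Odc1 and for Srm.

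Counted over the list, N1ICD over MYC/Otx2 tumours gave the most calls in the edgeR fit of all 4 groups with TMM scaling, 9, against 12 with DESeq2, 10 with limma-voom and 10 in a fit of the 2 groups alone, where S100b-cell over MYC/Otx2 gave more (13, 13 and 21). Of 35 genes, 7 fell (Prps1, Cad, Impdh1, Shmt1, Impdh2, Mthfd1 and Atic) and 2 rose (Gmps and Adss), against 9.76% of all tested genes lower and 12.0% higher. The median log2 fold change of the members was -0.63, beside 0.14 over all genes tested. Values were negative for 27 of 35, against 6895 of the 15228 genes tested. For 16 members every N1ICD library was below every MYC/Otx2 library, against 20.8% of all genes. Prps1, Cad, Impdh1, Shmt1 and Gmps were called whichever of the 11 libraries was left out. Leaving out any MYC/Otx2 library or N1ICD replicate 2 ended the calls of Impdh2, Mthfd1, Atic and Adss, and leaving out N1ICD replicate 1 ended those of Impdh2, Mthfd1 and Atic (adjusted p = 0.0512 to 0.0816 where lost). Without any 1 of the MYC/Otx2 libraries or N1ICD replicate 2 there were 5 calls. Without N1ICD replicate 1 there were 7, 6 of the 9 and Psat1, and without N1ICD replicate 3 there were 14. The call of Adss was also lost without the low-count filter.

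In S100b-cell over MYC/Otx2 tumours 6 genes fell (Cad, Prps1, Shmt1, Impdh1, Sms and Atic) and Gmps rose, against 7.89% of all tested genes lower and 10% higher. The members' median was -0.58, beside 0.17 over all genes. Values were negative for 25 of 35, against 6710 of the 15228 genes tested. For 20 members every S100b-cell library was below every MYC/Otx2 library, against 21.8% of all genes. Cad, Prps1, Shmt1 and Gmps were called whichever library was left out. Impdh1 was lost without S100b-cell replicate 3 (adjusted p = 0.054), Sms without any MYC/Otx2 library or S100b-cell replicate 2 or 3 (adjusted p = 0.0732 to 0.0996), and Atic without any library of either group or N1ICD replicate 2 or 3 (adjusted p = 0.0581 to 0.144). Without S100b-cell replicate 3 there were 4 calls, and without either MYC/Gfi1 library 12. The call of Atic was also lost with upper-quartile scaling and without mitochondrially encoded genes. The comparisons against MYC/Otx2 share its libraries, so their calls are not independent.

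In MYC/Otx2 over MYC/Gfi1 tumours, the comparison within 1 library set, 5 genes rose (Cad, Shmt1, Ppat, Mthfd1 and Impdh1) and none fell, against 2.43% of all tested genes higher and 3.03% lower. Values were positive for 33 of 35 genes, all but Ctps2 and Gmps, against 6790 of the 15228 genes tested. The members' median was 0.99, beside -0.14 over all genes. For 25 genes every MYC/Otx2 library was above both MYC/Gfi1 libraries, against 20.1% of all genes. No call was made by edgeR without MYC/Gfi1 replicate 2, MYC/Otx2 replicate 1 or MYC/Otx2 replicate 3 (0 genes, with 16, 14 and 14 at an unadjusted p under 0.05). Without MYC/Gfi1 replicate 2 the members' median was 0.69, and without MYC/Gfi1 replicate 1 it was 1.40, with 12 genes called. Without the low-count filter the calls of Impdh1 and Ppat were lost, and in a fit of the 2 groups alone those of Cad, Ppat, Mthfd1 and Impdh1, while Mthfd2 was called. There were 11 calls without N1ICD replicate 1, 2 without MYC/Otx2 replicate 2 or any S100b-cell library, and 4 and 7 without N1ICD replicates 2 and 3.

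**Figure D4:**
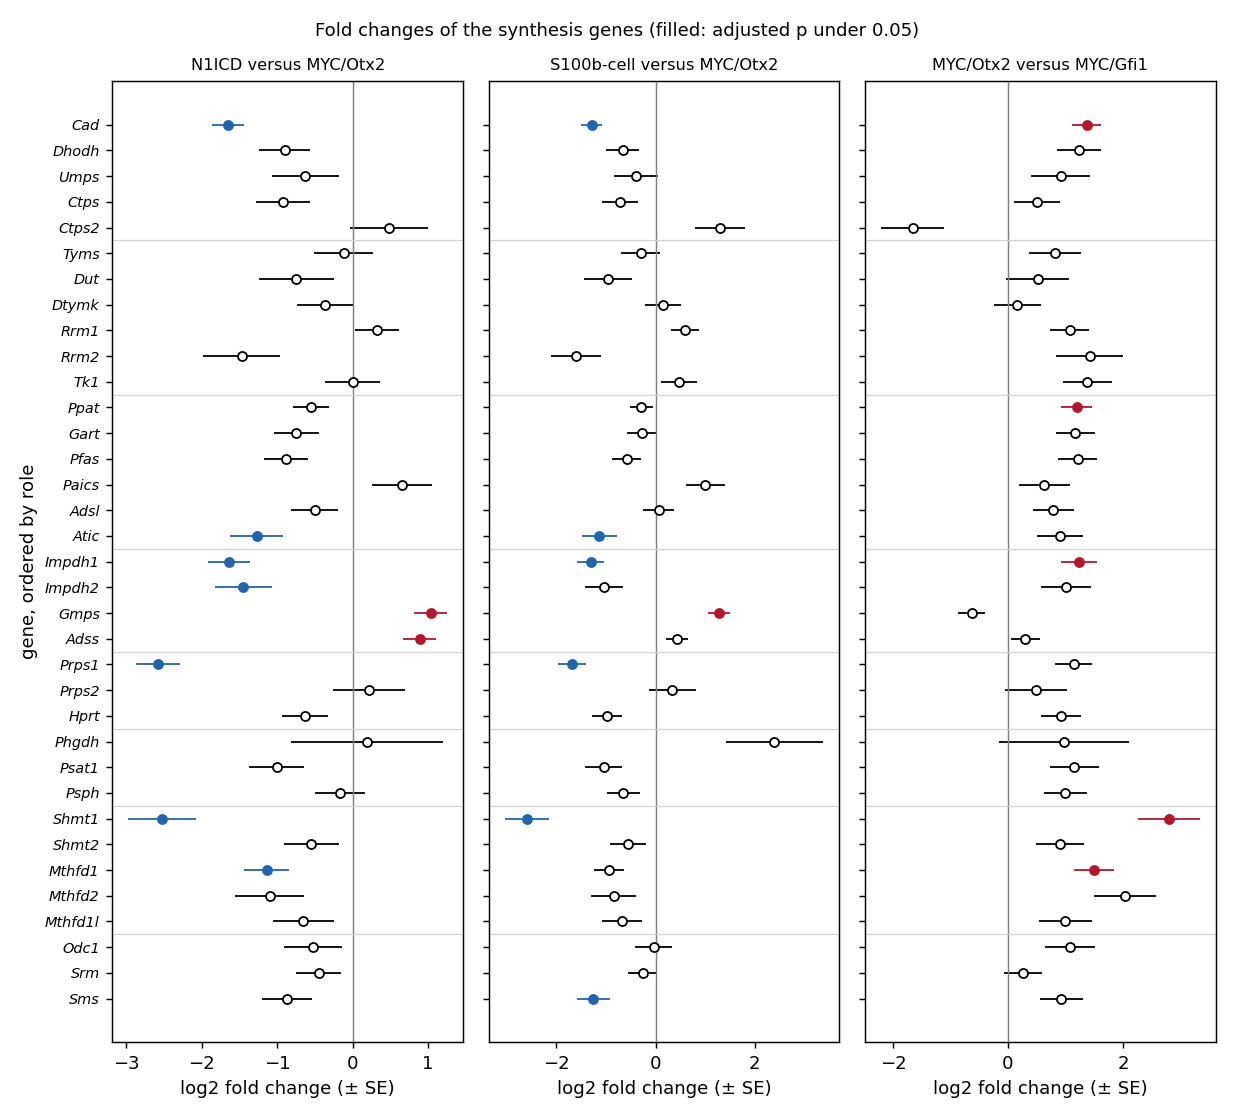
Log2 fold change ± SE (x axis) of the 35 genes (rows, by role) in N1ICD over MYC/Otx2, S100b-cell over MYC/Otx2 and MYC/Otx2 over MYC/Gfi1 tumours. Filled points passed an adjusted p of 0.05 (red higher, blue lower; 9, 7 and 5 genes) and open points did not. Gmps lies on the side opposite to most genes in each panel, and the panels share MYC/Otx2 libraries.

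In N1ICD over MYC/Gfi1 tumours Adss and Rrm1 rose and Prps1 fell, 2 and 1 of 35 genes, against 5.47% of all tested genes higher and 6.05% lower, and the median was 0.33, beside -0.01. None of the 3 calls held without N1ICD replicate 2 (0 genes by edgeR, 6 at an unadjusted p under 0.05). Rrm1 and Adss were also lost without MYC/Gfi1 replicate 2, Prps1 without MYC/Gfi1 replicate 1 and Rrm1 without N1ICD replicate 3 (adjusted p = 0.0542 to 0.127 over all losses), and the median was -0.04 without N1ICD replicate 3. Without N1ICD replicate 1, 6 genes were called. All 3 calls were lost in a fit of the 2 groups alone.

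In S100b-cell over MYC/Gfi1 tumours Rrm1 and Tk1 rose and none fell, against 2.34% of all tested genes higher and 2.01% lower, and the median was 0.35, beside 0.01. Neither call held without MYC/Gfi1 replicate 2 or without any 1 of the S100b-cell or MYC/Otx2 libraries (0 genes by edgeR, 6 to 11 at an unadjusted p under 0.05). Tk1 was also lost without MYC/Gfi1 replicate 1 or N1ICD replicate 2 (adjusted p = 0.0552 to 0.184 over all its losses), and without MYC/Gfi1 replicate 1 there were 7 calls. Both calls were lost in a fit of the 2 groups alone.

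Between N1ICD and S100b-cell tumours edgeR called 0 of the 35 genes, against 0.808% of all tested genes higher and 0.407% lower. At an unadjusted p under 0.05 it found 1 gene, Prps1, at -0.89 ± 0.28 (adjusted p = 0.133), and DESeq2 and limma-voom called 0 as well, with 3 and 2 genes under that p. The median was -0.24, beside -0.06 over all genes. The SE of a member was 0.21 to 1.01 on the log2 scale, so genes that missed the threshold are not shown to be equal in both models. The coefficient of variation over replicates had a median over the 35 genes of 41.4% in N1ICD, 15.7% in S100b-cell, 13.97% in MYC/Otx2 and 25.96% in MYC/Gfi1 tumours.

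Related genes outside the 35 were called in both directions, as were genes at large. Of all tested genes, 12.0% were called higher and 9.76% lower in N1ICD over MYC/Otx2 tumours. These shares were 10% and 7.89% in S100b-cell over MYC/Otx2 tumours, and 2.43% and 3.03% in MYC/Otx2 over MYC/Gfi1 tumours. Whether any list given below departs from the shares of all tested genes was not tested. Of 21 tested genes of the folate and methionine cycles, 2 rose and 4 fell in N1ICD over MYC/Otx2 tumours, 1 rose and 4 fell in S100b-cell over MYC/Otx2 tumours, and 3 rose and 1 fell in MYC/Otx2 over MYC/Gfi1 tumours. Gldc, the glycine decarboxylase that feeds folate from glycine, averaged 2.63 ± 2.59 CPM in N1ICD, 4.04 ± 2.24 CPM in S100b-cell and 233 ± 53.1 CPM in MYC/Otx2 (SD, n = 3 each), and 5.51 ± 6.8 CPM in MYC/Gfi1 tumours (SD, n = 2). Its log2 fold change was -6.50 ± 1.05 (SE) in N1ICD (adjusted p = 0.00363) and -5.85 ± 0.97 in S100b-cell over MYC/Otx2 tumours (adjusted p = 0.0054). Cbs, which joins serine to homocysteine on the way to cysteine, rose by 3.73 ± 0.54 in N1ICD (adjusted p = 0.00213) and by 5.02 ± 0.57 in S100b-cell over MYC/Otx2 tumours (adjusted p = 0.00114).

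Of 26 other nucleotide enzymes tested, 3 rose and 3 fell in N1ICD over MYC/Otx2 tumours, 2 rose and 2 fell in S100b-cell over MYC/Otx2 tumours, and 1 rose and 0 fell in MYC/Otx2 over MYC/Gfi1 tumours. Ak4, a mitochondrial adenylate kinase, averaged 57.03 ± 32.02 CPM in N1ICD, 86.3 ± 19.4 CPM in S100b-cell and 624 ± 73.1 CPM in MYC/Otx2 (SD, n = 3 each), and 144 ± 32.3 CPM in MYC/Gfi1 tumours (SD, n = 2). Itpa, which clears inosine triphosphate, fell by 1.80 ± 0.30 (log2, SE) in N1ICD (adjusted p = 0.00369) and by 1.47 ± 0.29 in S100b-cell over MYC/Otx2 tumours (adjusted p = 0.00992). Of 13 other polyamine genes, 2 rose and 2 fell in N1ICD over MYC/Otx2 tumours, 2 rose and 2 fell in S100b-cell over MYC/Otx2 tumours, and 1 rose and 0 fell in MYC/Otx2 over MYC/Gfi1 tumours. Oaz1, the antizyme that sends ornithine decarboxylase to the proteasome, fell by 1.21 ± 0.24 in N1ICD over MYC/Otx2 tumours (adjusted p = 0.00851). Mtap, which salvages the by-product of polyamine synthesis, fell by 5.31 ± 0.98 in S100b-cell over MYC/Otx2 tumours (adjusted p = 0.00765). It rose by 5.41 ± 1.19 in MYC/Otx2 and by 4.31 ± 1.13 in N1ICD over MYC/Gfi1 tumours (edgeR, adjusted p = 0.036 and 0.038). Mtap split the N1ICD libraries, at 4.29, 174 and 82.4 CPM. It was at 3.36 to 6.43 CPM in S100b-cell, 159.8 to 224.9 CPM in MYC/Otx2, and 3.96 and 4.79 CPM in MYC/Gfi1 libraries.

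Of 16 genes of amino acid supply and the ATF4 response, 3 rose and 3 fell in N1ICD over MYC/Otx2 tumours, 3 rose and 2 fell in S100b-cell over MYC/Otx2 tumours, and 1 rose and 1 fell in MYC/Otx2 over MYC/Gfi1 tumours. Slc1a4, a transporter of serine and other small neutral amino acids, averaged 215 ± 76.7 CPM in N1ICD tumours, against 21.3 ± 2.12 CPM in S100b-cell tumours (SD, n = 3 each), and rose by 3.34 ± 0.28 (log2, SE, adjusted p = 0.00109). Cebpb, a transcription factor, rose by 1.91 ± 0.23 in N1ICD (adjusted p = 0.00107) and by 3.28 ± 0.24 in S100b-cell over MYC/Otx2 tumours (adjusted p = 0.000163). Slc1a5, a glutamine transporter, rose by 2.44 ± 0.50 in MYC/Otx2 over MYC/Gfi1 tumours (adjusted p = 0.0294). In N1ICD and S100b-cell over MYC/Gfi1 tumours and between N1ICD and S100b-cell tumours, each of these lists had 0 to 2 calls. The shares of all tested genes called higher and lower were, in that order, 5.47% and 6.05%, 2.34% and 2.01%, and 0.808% and 0.407%.

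Of the 15 proliferation markers, 2 rose and 4 fell in N1ICD over MYC/Otx2 tumours, 2 rose and 1 fell in S100b-cell over MYC/Otx2 tumours, and 0 rose and 0 fell in MYC/Otx2 over MYC/Gfi1 tumours (edgeR, 6 at an unadjusted p under 0.05). The 2 that rose were Mki67 and Ccne2 in both comparisons. Mki67 averaged 226 ± 58.6 CPM in N1ICD and 122 ± 38.9 CPM in S100b-cell, against 53.01 ± 3.82 CPM in MYC/Otx2 tumours (SD, n = 3 each). Birc5, a mitotic survival factor, averaged 515 ± 143 CPM in N1ICD and 745 ± 169 CPM in S100b-cell, against 1660 ± 526 CPM in MYC/Otx2 tumours (SD, n = 3 each). Mki67 rose by 2.09 ± 0.34 and Birc5 fell by 1.69 ± 0.30 (log2, SE) in N1ICD over MYC/Otx2 tumours (adjusted p = 0.00372 and 0.00538).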

How the data were processed

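Gene counts of 11 tumour libraries were used as deposited. Per the labels' protocols, the authors extracted total RNA with TRIzol from fresh frozen tumours and made QuantSeq 3′ libraries with molecular identifiers. STAR 2.4.1d, HTSeq 0.6.1 and mm10 are named in the submitters' processing notes; annotation release, strand setting and any collapsing of molecular identifiers are not given in the sources. Groups came from sample titles. Genes passing edgeR's filterByExpr (15228 of 38406, all 35 members) were fitted once over 4 groups with TMM scaling and edgeR 4.0.16 quasi-likelihood tests (R 4.3.3, common biological coefficient of variation 0.562, 7 residual degrees of freedom), with Benjamini-Hochberg adjustment over all tested genes and a threshold of 0.05. SE is the log2 fold change over the square root of F. A gene said to be called, or to miss the threshold, refers to this fit unless another is named. Alternatives were other scalings, no filter, DESeq2 1.42.0, limma-voom 3.58.1, a fit of the compared groups alone, a replicate block and leaving out each library.

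Members and gene lists were chosen with earlier results of these data known. Values in every library are given for up to 4 called members of smallest p per comparison, and for the most abundant member of a role with no call; other lists name up to 2 called genes of smallest p per comparison, of which 1 is not reported here. Levels are not compared between genes.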

Additional observations from a re-analysis of the deposited data

How the results depend on the processing

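With 2 or 3 libraries a group and a common biological coefficient of variation of 0.562, small differences could not be detected, and the N1ICD libraries were the shallowest. Of 494 combinations of a called gene and an alternative, 383 kept the call, 111 lost it and 0 changed direction, and 9 of 26 calls were kept under all alternatives: Shmt1, Impdh1, Cad, Gmps and Prps1 in N1ICD over MYC/Otx2 tumours, and Shmt1, Cad, Gmps and Prps1 in S100b-cell over MYC/Otx2 tumours. The cause of the changes below was not tested.

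N1ICD over MYC/Otx2 tumours gave 9 called members, 7 to 12 under other settings and 5 to 14 with a library left out. S100b-cell over MYC/Otx2 gave 7, against 13 with DESeq2, 13 with limma-voom, 21 in a fit of the 2 groups alone, and 4 to 12 with a library left out. MYC/Otx2 over MYC/Gfi1 gave 5, against 3 without the low-count filter, 13 with DESeq2, 11 with limma-voom, 2 in a fit of the 2 groups alone, and 0 to 12 with a library left out. N1ICD over MYC/Gfi1 gave 3, against 5 with DESeq2, 0 in an edgeR fit of the 2 groups alone (3 at an unadjusted p under 0.05), and 0 to 6 with a library left out. S100b-cell over MYC/Gfi1 gave 2, against 6 with DESeq2, 4 with limma-voom, 0 in an edgeR fit of the 2 groups alone (11 at an unadjusted p under 0.05), and 0 to 7 with a library left out. N1ICD over S100b-cell gave 0 under every alternative run, with 1 to 6 genes at an unadjusted p under 0.05.

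With the replicate number as a block, called members were 1 in N1ICD, 0 in S100b-cell (9 at an unadjusted p under 0.05) and 1 in MYC/Otx2 over MYC/Gfi1 tumours, 0 in N1ICD over S100b-cell, and 7 in N1ICD and 6 in S100b-cell over MYC/Otx2 tumours. Libraries of the same number deviated together with correlations of -0.176 to 0.213 over 15 pairs. Pairs of unlike number spanned -0.314 to 0.314. Deviations were taken from the mean of groups of 2 or 3 libraries and so mirror each other. These values cannot show whether libraries of the same number share anything else.

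Over all genes, calls numbered 1754 in N1ICD over MYC/Gfi1 (15 in a fit of the 2 groups alone to 3369 with DESeq2), 663 in S100b-cell over MYC/Gfi1 (0 to 2309 in the same fits), 832 in MYC/Otx2 over MYC/Gfi1 (65 without MYC/Otx2 replicate 3 to 2695 with DESeq2) and 185 in N1ICD over S100b-cell (9 without S100b-cell replicate 3 to 1367 with DESeq2). They numbered 3315 in N1ICD over MYC/Otx2 (1654 without MYC/Otx2 replicate 1 to 4653) and 2727 in S100b-cell over MYC/Otx2 (1192 without MYC/Otx2 replicate 3 to 4622 in a fit of the 2 groups alone).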
